A study of Caenorhabditis elegans with 12 samples.

Results

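The 5 eIF4E genes of Caenorhabditis elegans (ife-1 to ife-5) and the single eIF4G gene (ifg-1) were chosen by gene name, and all 6 were present among the 39665 genes of both deposited tables. The rule used no measured value, though the family was picked with earlier results of these data known. Wild-type N2 XX adult hermaphrodites were compared with XX adults of strain JK574, homozygous for fog-2(q71), which are labelled as females. All animals were grown at 20 °C on OP50 bacteria, and RNA was taken from whole worms. The 12 libraries formed 4 groups of 3, since RNA of each genotype was copied once with oligo-dT primers, which anneal to poly(A) tails, and once with random hexamers. For each priming the authors' deposited table gives 1 FPKM value per genotype (fragment counts normalized for transcript length and library depth), so values of single libraries and their spread were not used here, and depth is unknown.

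eIF4E binds the cap at the 5′ end of an mRNA, and eIF4G ties it to the helicase eIF4A and to poly(A)-binding protein, so that the small ribosomal subunit can be loaded. Many C. elegans mRNAs receive a trimethylated cap by trans-splicing, and IFE-1, IFE-2 and IFE-5 bind both this cap and the ordinary monomethylated cap, while IFE-3 and IFE-4 bind the ordinary cap. In the worm germline, where mRNAs are stored and their translation is timed, the isoforms are known to serve different mRNAs. FOG-2 works together with GLD-1, which binds mRNAs and represses their translation, so that hermaphrodites can make sperm. The study set oligo-dT against hexamer priming to ask whether fog-2 bears on polyadenylation. The genes of the cap-binding proteins and of eIF4G, which contacts poly(A)-binding protein, are described here in that setting.

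As checks of the labels, the fog-2 gene stood at 64.2 and 14.4 FPKM (N2, then fog-2 animals) with oligo-dT and at 34.9 and 7.08 FPKM with hexamers (Cuffdiff q = 0.00636 and q = 0.0103, the authors' deposited tables). The sperm marker list summed to 158 FPKM in N2 and 39.7 FPKM in fog-2 animals with oligo-dT. Of 33 tested members 14 were called lower, where 1.43% of all tested genes were called in either direction. In each genotype 1 of 40 listed members was at 0. With hexamers the sperm list summed to 71.6 and 32.8 FPKM, and 4 and 15 members were listed at 0. Of its members 5 were tested and none called, where 0.822% of all tested genes were called. Oocyte markers summed to 3962 and 3721 FPKM with oligo-dT and to 4785 and 4978 FPKM with hexamers, and germline markers to 2110 and 1919 FPKM and to 4661 and 4516 FPKM, with 0 calls in either list. Male somatic markers summed to 1.33 and 1.05 FPKM with oligo-dT and, with none tested, to 0.522 and 0.835 FPKM with hexamers. Early embryo markers summed to 17.6 and 21.7 FPKM with oligo-dT and to 10.98 and 12.67 FPKM with hexamers, with 0 calls among 5 and 1 tested. Intestine markers summed to 1732 and 1510 FPKM with oligo-dT and to 17910 and 16210 FPKM with hexamers, and 1 of 4 tested with oligo-dT was called lower: cpr-1, a protease gene, at 657 and 355 FPKM (q = 0.00636, the authors' deposited table). With hexamers 0 of 6 intestine markers were called. Genes without an oligo-dT value were left out of the oligo-dT sums. They were the intestine markers vit-2 and vit-5, at 9754 and 5285 FPKM in N2 with hexamers, 2 oocyte, 2 germline, 1 early embryo and 1 sperm marker. The sums of the 2 primings thus cover different genes and cannot be set against each other. Counts of 0 in lists this short are near the shares of 1.43% and 0.822% over all tested genes and are not a result about these cell types. The part of these cell types in the values of the family was not tested. In whole worms, fewer cells of a type and less RNA per cell cannot be told apart.

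None of the 6 genes was called between the genotypes with either priming. For 4 of them (ife-2, ife-3, ife-4 and ifg-1) errors implied by the authors' p-values bounded the difference. The larger errors from the authors' test score bounded it less closely. With oligo-dT, 0 of 5 tested members passed the call rule used here (a Cuffdiff q of at most 0.05, as deposited by the authors), where 1.43% of all tested genes did, and 0 had an unadjusted p under 0.05, where 8.45% of all tested genes did. With hexamers, 0 of 6 passed, against 0.822% of all tested genes, and 1 of 6 (ife-3) had an unadjusted p under 0.05, against 8.97%. A count of 0 among so few genes is near those shares and is not a result about the family. The median log2 fold of the members, as fog-2 over N2, stood at -0.04 in the oligo-dT table and 0.22 in the hexamer table, beside -0.03 and 0.10 over all tested genes. Without ife-1 and ife-5, which share their loci with other gene models, the medians of the remaining 4 were -0.06 and 0.06.

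**Figure D1:**
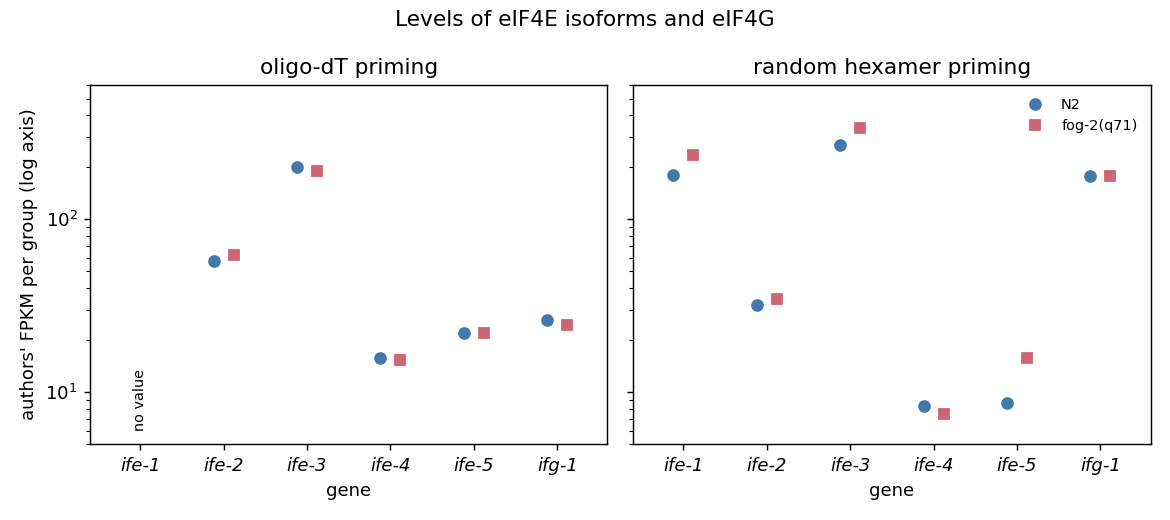
FPKM per group as the authors give it (log axis) for the 6 genes, with oligo-dT on the left and hexamers on the right; circles are N2 and squares fog-2(q71), each 1 pooled value with no error bar. In both panels ife-3 is the highest of the ife genes, at 190 to 339 FPKM, and ife-1 has no oligo-dT value.

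ife-3 had the highest FPKM of the eIF4E isoforms with a value in every group, which were all 5 with hexamers and 4 with oligo-dT, where ife-1 has none. It encodes the isoform closest to mammalian eIF4E, is needed for embryonic viability, and is also a part of the PETISCO complex that processes piRNA precursors. The gene lies on chromosome V from 6935 to 7818, in a locus of its own (the files' build, which no source used here names). With oligo-dT, ife-3 was at 200 FPKM in N2 and 190 FPKM in fog-2 animals. The log2 fold was -0.07, with a standard error of 0.14 implied by the authors' p-value (q = 0.978, the authors' deposited table). With hexamers ife-3 was at 268 FPKM in N2 and 339 FPKM in fog-2 animals, the lowest unadjusted p of the members. The log2 fold was 0.34 with an implied standard error of 0.17 (unadjusted p = 0.0432 and q = 0.542 in the authors' deposited table, Cuffdiff), and 0.24 after subtracting that table's median over all tested genes. It thus did not pass the authors' test with either priming. The 95% interval of the ratio of fog-2 to N2 ran from 0.782 to 1.16 with oligo-dT and from 1.01 to 1.59 with hexamers. With errors from the authors' test score both intervals were wider, at log2 folds from -0.57 to 0.43 and from -0.25 to 0.93. The hexamer interval then included a ratio of 1.

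ife-2 had the second highest oligo-dT FPKM of the 4 isoforms with an oligo-dT value. IFE-2 is present in somatic cells, where its loss lengthens life, and in the germline it serves mRNAs of meiotic recombination at raised temperature. The gene lies on the X chromosome from 381527 to 382704, alone in its locus. It was at 57.7 FPKM in N2 and 62.3 FPKM in fog-2 animals with oligo-dT, and at 32.1 and 34.4 FPKM with hexamers. Both genotypes were close to each other in both tables, with log2 folds of 0.11 (implied standard error 0.17) and 0.10 (implied standard error 0.22). The 95% intervals of the ratio ran from 0.863 to 1.35 and from 0.790 to 1.45. Errors from the authors' test score gave wider intervals, at log2 folds from -0.33 to 0.55 and from -0.45 to 0.65.

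ife-4 encodes the isoform related to the cap-binding repressor 4EHP of other animals and is known from neurons and muscle. The gene lies on the X chromosome from 1104210 to 1106039, alone in its locus. It was at 15.8 FPKM in N2 and 15.4 FPKM in fog-2 animals with oligo-dT, and at 8.28 and 7.50 FPKM with hexamers. The log2 folds were -0.04 (implied standard error 0.22) and -0.14 (implied standard error 0.37), and neither passed the authors' test (q = 0.998 and q = 0.999, the authors' deposited table). With hexamers, the less precise of both tables for this gene, a ratio between 0.550 and 1.49 lay within the 95% interval. Errors from the authors' test score gave log2 folds from -0.62 to 0.55 with oligo-dT and from -1.01 to 0.72 with hexamers.

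ifg-1 encodes eIF4G, the scaffold that holds eIF4E, in a long form with and a short form without the eIF4E-binding part. A gene-level FPKM does not separate these forms. The gene lies on chromosome II from 8217203 to 8221192, alone in its locus. It was at 26.1 FPKM in N2 and 24.4 FPKM in fog-2 animals with oligo-dT, and at 178 and 179 FPKM with hexamers. The log2 folds were -0.10 (implied standard error 0.15) and 0.01 (implied standard error 0.17). The 95% interval of the ratio ran from 0.763 to 1.14 with oligo-dT and from 0.805 to 1.27 with hexamers. With errors from the authors' test score the intervals were wider, at log2 folds from -0.61 to 0.41 and from -0.56 to 0.59.

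ife-1 and ife-5, both known for expression in the germline, were the ones for which the tables say least. IFE-1 binds the P granule protein PGL-1 and is needed for sperm to mature and for normal oocyte production, and IFE-5 is its close relative. Both genes are listed under loci shared with many other gene models. ife-1 is 1 of 156 models over 770 kb of chromosome III (12784715 to 13555185), and ife-5 is 1 of 95 models over 456 kb of chromosome II (11948521 to 12404254). With oligo-dT, ife-1 was marked HIDATA, Cuffdiff's mark for a locus with too many fragments, as were 155 of the 156 models there, and its placeholder of 0 FPKM is not a measurement. With hexamers ife-1 was at 181 FPKM in N2 and 237 FPKM in fog-2 animals, the second highest of the isoforms. Its log2 fold was 0.38 with an implied standard error of 2.61 (q = 0.999, the authors' deposited table). ife-5 was at 22.1 and 22.0 FPKM with oligo-dT and at 8.70 and 15.8 FPKM with hexamers, the highest ratio of any member. The log2 folds were -0.01 and 0.86, with implied standard errors of 2.66 and 3.31.

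**Figure D2:**
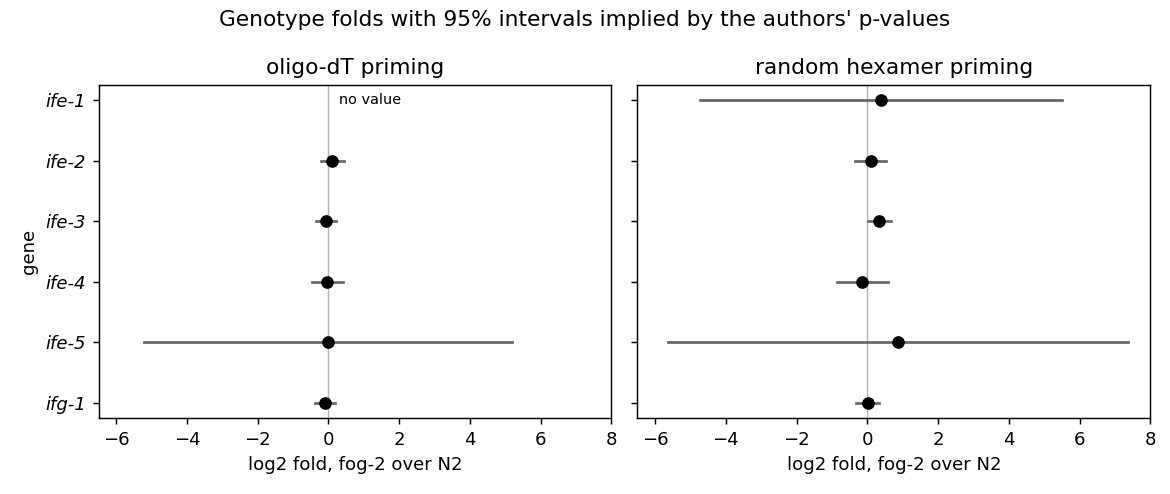
Log2 fold of fog-2 over N2 (points) for the 6 genes, with 95% intervals from the implied standard errors (lines), by priming. The 4 genes with a locus of their own have short lines, and the lines of ife-1 and ife-5 run past 4 log2 units in either direction.

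The 95% intervals of ife-1 (log2 fold from -4.74 to 5.51, hexamers) and ife-5 (-5.22 to 5.20 with oligo-dT and -5.63 to 7.36 with hexamers) include large changes of either sign, so the ratios of these isoforms were not determined. The implied errors of both genes were above those of 94.0% to 97.0% of all tested genes. Errors varied among the gene models of their loci, where only tested models with a finite implied error are counted. With hexamers the median implied error was 2.04 over 51 tested models of the ife-5 locus (0.20 to 4.02) and 1.84 over 92 of the ife-1 locus (0.06 to 4.15). With oligo-dT it was 1.23 over 72 tested models of the ife-5 locus (0.04 to 3.54), and in each case 0 were called. Across all tested genes with a finite fold and a finite implied error, the median error with oligo-dT was 0.25 in loci of 1 gene model. It was 0.96 in loci of 50 or more, and with hexamers the medians were 0.21 and 1.39. Among those same genes, the authors' test called 191 of 11103 (1.72%) in loci of 1 model with oligo-dT and 0 of 1948 in loci of 50 or more. With hexamers the counts were 67 of 6409 (1.05%) and 0 of 1987. The maternal gene mex-1, a reported translational client of IFE-1, shares the ife-5 locus, and at 322 and 303 FPKM with oligo-dT it had an implied error of 0.46.

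**Figure D3:**
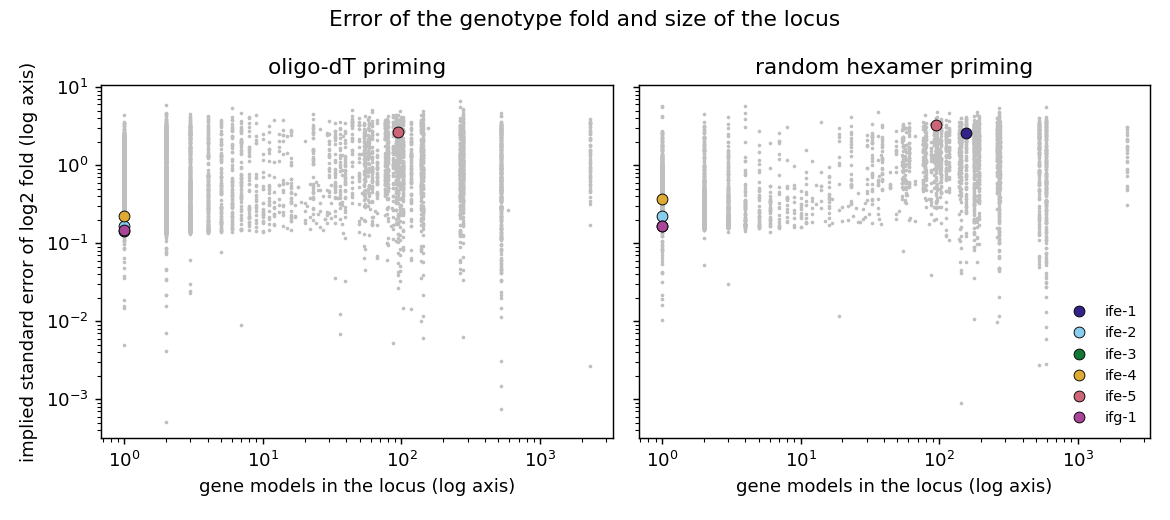
Standard error of the log2 fold implied by the authors' p-value (log axis) against the number of gene models in the same locus (log axis), for all tested genes (grey) and the family (coloured). ife-1 and ife-5 lie among the large loci with errors of 2.61 to 3.31, and the other 4 genes lie at 1 model with errors of 0.14 to 0.37.

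FPKM is scaled by transcript length, so isoforms were set side by side within a table. Whether each priming covers transcripts of different genes alike was not tested. In N2 the ratio of oligo-dT to hexamer FPKM was 0.147 for ifg-1 and 2.54 for ife-5. The order and the shares are thus those of FPKM under 1 priming, and not of RNA molecules. With no replicate spread, no neighbours in the order can be told apart by a test. With hexamers, the only table with all 5 isoforms, the order of the FPKM levels was ife-3, ife-1, ife-2, ife-5, ife-4 in both genotypes. ife-3 held 53.8% of the summed eIF4E FPKM in N2 and 53.5% in fog-2 animals, ife-1 held 36.4% and 37.4%, and ife-2 held 6.45% and 5.43%. ife-4 held 1.66% and 1.18%, and ife-5 held 1.75% and 2.50%. ife-4 and ife-5 were within 1 FPKM of each other in N2. Over the 4 isoforms with an oligo-dT value, ife-3 held 67.6% in N2 and 65.6% in fog-2 animals, ife-2 held 19.5% and 21.5%, ife-5 held 7.49% and 7.59%, and ife-4 held 5.35% and 5.32%. The order of the values was thus the same in both genotypes within each table. The places of ife-1 and ife-5 are the least certain, since their folds had the largest implied errors of the members (2.61 to 3.31).

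The primings gave different pictures of the ratio of eIF4E to eIF4G FPKM. With oligo-dT, the summed FPKM of the 4 isoforms without ife-1 was 11.3 times that of ifg-1 in N2 and 11.9 times in fog-2 animals. Over the same 4 isoforms with hexamers it was 1.78 and 2.21 times, and over all 5, with ife-1, it was 2.8 and 3.5 times. The tables were normalized separately, so levels across them were set against all 8643 genes with a value in both. In N2 the oligo-dT FPKM of ifg-1 was 0.147 times its hexamer FPKM, or -3.35 on the log2 scale relative to the median gene, and only 3.48% of genes had a lower ratio. In fog-2 animals the ratio was 0.136, with 3.98% of 8616 genes lower. The locus of ifg-1 spans 3.99 kb, against 0.884 kb for ife-3 and 1.18 kb for ife-2, and the part of transcript length in this ratio was not tested. Relative to the median gene, the log2 ratio of oligo-dT to hexamer FPKM was -1.01 in N2 and -1.39 in fog-2 animals for ife-3, 0.26 and 0.31 for ife-2, and 0.35 and 0.49 for ife-4. For ife-5 it was 0.76 in N2 (above 93.0% of genes) and -0.08 in fog-2 animals (above 45.5%), the one member whose sign differed between genotypes, with the large errors given above.

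Whether the genotype effect differed between primings was tested by subtracting the hexamer log2 fold from that with oligo-dT and removing the median over 8593 genes (-0.06), with a normal test on the implied errors and Benjamini-Hochberg adjustment over those genes. Among those genes 0 (0%) passed at an adjusted p of 0.05, and 1.61% had an unadjusted p under 0.05. That share is below the threshold of 0.05 itself, so the test was conservative and could hardly call any gene. None of the 5 members with both values passed either, which says little for that reason. As tested, ife-3 had an unadjusted p of 0.106 by this normal test. An alternative setting multiplied the errors of all genes by 1 factor of 0.645, and it called 58 of the 8593 genes. There ife-3 had an unadjusted p of 0.0121 and an adjusted p of 0.306 by the same normal test. The lower p rests on that rescaling and is not separate evidence about ife-3. The difference was -0.36 for ife-3, with a standard error of 0.22, a 95% interval from -0.79 to 0.08 and z = -1.62. It was 0.07 for ife-2, with an interval from -0.48 to 0.62, 0.16 for ife-4, with a standard error of 0.43, and -0.06 for ifg-1, with an interval from -0.49 to 0.38. For ife-5 it was -0.82 with an interval from -9.14 to 7.50. Both primings used RNA of the same animals, so their errors are not independent.

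**Figure D4:**
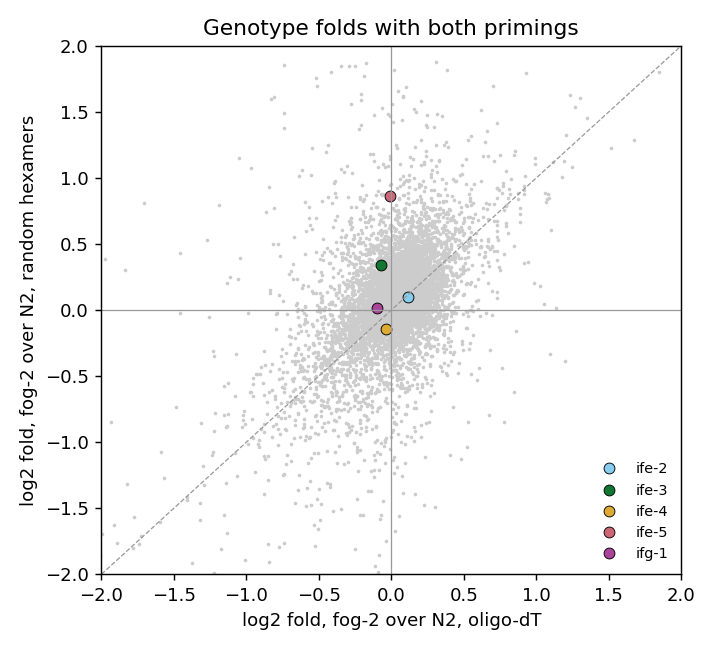
Log2 fold of fog-2 over N2 with oligo-dT (x) and with hexamers (y) for genes with a value in both tables (grey, axes cut at 2) and for the 5 members with both values (coloured); the dashed line marks equal folds. The folds of ife-2, ife-4 and ifg-1 differ by 0.01 to 0.11 log2 units between primings and lie near the line, and ife-3 and ife-5 lie above it.

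Of 70 genes around eIF4F in translation and cap metabolism found in the tables, on 7 lists, 63 were tested with oligo-dT and 67 with hexamers. The authors' test called 0 with either, where it called 1.43% and 0.822% of all tested genes, so that a count of 0 is near the background and not a result about these genes. At an unadjusted p under 0.05, 2 were higher and 1 lower of 63 with oligo-dT, where 2.2% and 6.25% of all tested genes were. With hexamers 8 were higher and 1 lower of 67, where 6.37% and 2.6% of all tested genes were. Their median log2 folds were -0.01 and 0.13, beside -0.03 and 0.10 over all tested genes.

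On the list of other eIF4F parts and poly(A)-binding proteins, oligo-dT levels were 1158 and 1111 FPKM for inf-1, the eIF4A helicase. They were 953 and 991 FPKM for pab-1, a poly(A)-binding protein. The log2 folds of inf-1 and pab-1 were -0.06 and 0.06 with oligo-dT and -0.10 and 0.19 with hexamers. The second poly(A)-binding protein gene, pab-2, in a locus of 2 models, was at 61.0 and 52.0 FPKM with oligo-dT. F33D11.10, on the same list though its part in eIF4F was not checked, was at 150 and 163 FPKM. None of these 4 passed the authors' test.

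Proteins reported to bind or act with IFE proteins included 12 genes tested with oligo-dT, 3 above and 9 below 0 and 6 above the median of all tested genes. With hexamers 13 were tested, 10 above and 3 below 0 and 5 above the median of all tested genes. Medians were -0.03 and 0.07. The RNA helicase gene cgh-1 had 1734 and 1570 FPKM by oligo-dT, its partner in germline mRNP granules car-1 at 1790 and 1782, the maternal zinc-finger gene oma-1 at 341 and 325, and tost-1, of a PETISCO complex, at 301 and 326. The gene of the IFE-1 partner, pgl-1, had log2 folds of -0.04 with oligo-dT and 0.35 with hexamers (q = 0.506, the authors' deposited table), and the eIF4E-binding repressor gene ifet-1 had -0.05 and 0.20; both were named after their values were seen.

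Other initiation factors had medians of -0.03 over 17 tested genes with oligo-dT and 0.14 over 19 with hexamers, 7 and 16 of them above 0 and 9 and 12 above the median of all tested genes. With oligo-dT, iff-1 and iff-2, which encode eIF5A, were at 3226 and 3399 FPKM and at 447 and 413 FPKM, eif-1 at 550 and 679, and eif-1.A at 531 and 598. Elongation and release factors had medians of -0.01 (7 tested) and 0.11 (8 tested). The elongation factor genes eef-1G, eef-1B.1, eef-2 and eef-1B.2 had oligo-dT log2 folds between -0.12 and 0.09. Kinases upstream of initiation had medians of 0.00 (4 tested) and 0.19 (6 tested), and the eIF2 kinase gene pek-1 had oligo-dT levels of 18.8 and 21.7 FPKM.

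**Figure D5:**
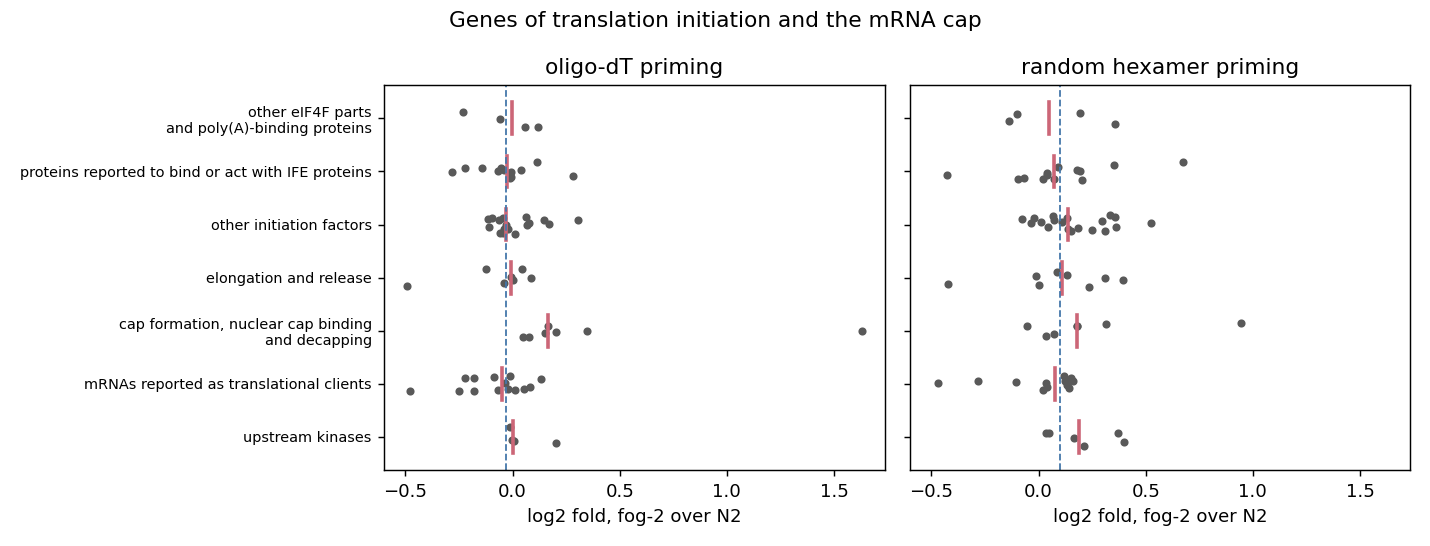
Log2 fold of fog-2 over N2 for each tested gene of the 7 pathway lists (points, moved apart at random along y), by priming, with the list median (red bar) and the median of all tested genes (dashed line, -0.03 with oligo-dT and 0.10 with hexamers). With hexamers most points lie above 0, as does the median of all genes; vertical place within a row carries no value.

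Genes of cap formation, nuclear cap binding and decapping were above 0 in 7 of 7 tested with oligo-dT (median 0.16) and in 6 of 7 with hexamers (median 0.18), with 0 calls. Against the median of all tested genes, 7 of 7 and 4 of 7 were above it. The scavenger decapping gene dcs-1 was at 99.1 and 126 FPKM, a log2 fold of 0.35 (q = 0.561, the authors' deposited table), and ncbp-1, of the nuclear cap-binding complex, at 81.2 and 85.5 FPKM. tgs-1, the enzyme that makes the trimethylated cap, was at 69.6 and 78.1 FPKM, and the decapping enzyme gene dcap-2 at 52.4 and 54.1 FPKM. mRNAs reported as translational clients of single isoforms had medians of -0.05 (14 tested) and 0.08 (12 tested). Of these, the maternal regulator gene pos-1 had oligo-dT levels of 1507 and 1483 FPKM, and pal-1, oma-1 and mex-1 had log2 folds of 0.08, -0.07 and -0.09. These are RNA levels, and translation was not measured.

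The genes whose 4 group values lay nearest to a member's were taken from 3414 named genes with at least 5 FPKM in each value, by Euclidean distance on log2 FPKM. For ife-3 they were imb-3, lgg-2 and hda-1 at distances of 0.25 to 0.30, for ife-2 they were dbr-1, cux-7 and gip-2 at 0.08 to 0.11, and for ife-4 they were nhr-70, madf-2 and gbh-1 at 0.13 to 0.14. For ife-5 they were fbxa-95, irg-3 and cdk-4 at 0.29 to 0.33. ifg-1 had the fewest near genes, with 2 within 0.5, ced-3 at 0.34 and vbh-1 at 0.39, and then ntl-9 at 0.50, while ife-2 had 138 within 0.5. The 4 values come from separately normalized tables and shared RNA samples.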

How the data were processed

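Per the labels' protocols, Trizol was used for RNA extraction and Illumina's TotalScript kit for the libraries. Libraries were grouped by title; 1 N2 sample per priming is labelled with strain N3, and 1 hexamer library is described as primed with oligo-dT. TopHat, Cufflinks 2.1.1 and Cuffdiff are named in the submitters' processing notes, and the sources used here name no genome build or annotation. Of the 6 members, 6 lay on the same chromosome as in WBcel235 and 0 had the same start and end, so the reference served for names only. The authors deposited 2 tables, per the file headers, with 1 FPKM value per group and, per gene, a q-value, a p-value and a test score; a deposited log2 fold column held error text where fog-2 was at 0. Columns of other samples numbered 0.

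Here log2 folds were recomputed from FPKM with no pseudocount. Standard errors are those at which a two-sided normal test of the log2 fold would give the authors' p-value, and 95% intervals use them; they are approximate, and unstable where a fold is near 0. The authors' p-values rest on samples the series design calls biological replicates. The handling of strand and of reads shared by similar genes is not stated in those sources. Python 3.11.15, numpy 2.4.6, pandas 2.3.3 and scipy 1.17.1 were used. Members and lists were chosen with earlier results of these data known. Named genes were all members, list genes called by the authors, up to 4 per list with the largest mean oligo-dT FPKM, 3 nearest genes per member, and pathway genes in a member's locus.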

Additional observations from a re-analysis of the deposited data

How the results depend on the processing

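The number of members called was 0 with each priming at q at or under 0.01 and 0.1, with p-values readjusted over genes of at least 1 FPKM, without shared loci, and with centred folds (chosen after seeing the data). At an unadjusted p under 0.05 it was 1 with hexamers (ife-3) and 0 with oligo-dT. The median log2 fold of the members lay between -0.06 and -0.01 with oligo-dT and between 0.06 (without shared loci) and 0.34 (without ifg-1) with hexamers. Centring on the median of all tested genes turned the sign of 3 folds near 0: ife-5 with oligo-dT to 0.0188, and ife-2 and ifg-1 with hexamers to -0.00377 and -0.0885. The other 61 folds and priming differences of single members, over pseudocounts of 0.1 and 1 FPKM, centring, the deposited fold and 4 settings of the priming test, kept their sign, and no member passed the threshold with centred folds or in those settings. Adding 1 FPKM moved the 18 shares of the summed eIF4E FPKM by at most 0.570 percentage points. Over all genes the priming test called 0 of 8593, but 29 with errors from the test score and 58 with errors multiplied by 0.645, with 0 members among them in each setting. Errors from the test score were larger for each member, such as 0.26 against 0.14 for ife-3 with oligo-dT. No paired analysis was possible because the tables hold 1 pooled value per group, and for the same reason leaving out single replicates was not run. Depth is unknown, and the large loci of ife-1 and ife-5 limit what can be said of them.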

Other observations

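Some pathway genes came closer to the authors' threshold than any member did, and a selection is named here after the values were seen. eol-1, of the cap list, was at 0.390 and 1.21 FPKM with oligo-dT (log2 fold 1.63, q = 0.352, the authors' deposited table). With hexamers it was at 0.394 and 0.164 FPKM and was not tested. ncbp-2 and pek-1 had hexamer log2 folds of 0.95 and 0.40 (q = 0.533 and q = 0.433, the authors' deposited table). With hexamers, 3 of 11 tested subunit genes of eIF3, the complex that joins eIF4G to the small ribosomal subunit, were higher in fog-2 animals at an unadjusted p under 0.05 in the authors' deposited table, where 6.37% of all tested genes were, and 0 were called. The other 8 had an unadjusted p of 0.0529 to 0.994 in the authors' deposited table. With oligo-dT 0 of 10 tested had an unadjusted p under 0.05. eif-3.G was at 69.8 FPKM in N2 and 101 FPKM in fog-2 animals (log2 fold 0.53, implied standard error 0.19, q = 0.230, the authors' deposited table). eif-3.H was at 74.3 and 95.1 FPKM, and eif-3.I at 98.3 and 126 FPKM. With oligo-dT their log2 folds were -0.05, -0.04 and -0.03. The difference between primings for eif-3.G was -0.52 with a standard error of 0.25, and did not pass adjustment over all genes.

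The nearest to a call was eef-1A.2, an elongation factor gene with a close paralog, eef-1A.1, in the genome. It was at 248 FPKM in N2 and 176 FPKM in fog-2 animals with oligo-dT, a log2 fold of -0.49 with an implied standard error of 0.15 (unadjusted p = 0.001, q = 0.0641 in the authors' deposited table). With hexamers it was at 264 and 197 FPKM, at a log2 fold of -0.42 and q = 0.343 (the authors' deposited table). The paralog eef-1A.1 had no oligo-dT value and was at 4122 and 5418 FPKM with hexamers, at a log2 fold of 0.39 and q = 0.751 (the authors' deposited table).

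pid-1, which acts with IFE-3 in a PETISCO complex, was at 40.1 and 63.9 FPKM with hexamers, where the log2 fold was 0.67 (q = 0.176, the authors' deposited table), and at 84.4 and 103 FPKM with oligo-dT, a log2 fold of 0.28.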
